A study of Homo sapiens with 18 samples.

Results

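The DNA replication machinery was followed here as 49 genes of 62754 in the deposited gene matrix, matched by symbol to a list of known replication genes. They were grouped by role into 5 licensing genes, 13 genes of the replicative helicase, 8 polymerase and primase genes, 9 genes of the clamp, its loaders and strand joining, 5 genes of nucleotide supply and repair of uracil, 6 genes of replicated chromatin and 3 genes of the fork and its checkpoint. Each symbol was found on 1 row, and all 49 genes were among the 15167 that passed the filter on low counts. The lowest count of any of them in any library was 65, and the highest was 33883. An annotated gene overlapped 27 of them on the other strand, protein-coding for 9, and 19 on the same strand, protein-coding for 8, and how reads there were shared out is not stated.

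RNA was sequenced from EA.hy926, an endothelial line made by fusing human umbilical vein endothelial cells with the A549 lung epithelial line. Mock cells received the transfection reagent without siRNA, siNT cells 10 nM non-targeting siRNA, and siELMO1 cells 10 nM of a pool of siRNAs against ELMO1, an adaptor protein of engulfment and cell movement. All cells were grown in 10% serum and then starved overnight in low serum. Each condition was taken at 48 h after transfection (0 h) and again after 24 h with 1 µg/ml poly(I:C), a synthetic double-stranded RNA that TLR3 senses, with 3 libraries in each of the 6 groups. There was no 24 h library without poly(I:C), so poly(I:C) and the further day in culture cannot be told apart. The study reported massive death of siNT cells under poly(I:C), and much less death in Mock and siELMO1 cells. How far cell death shaped the siNT libraries at 24 h, and every comparison with them, was not tested. The cells are of 1 line, so the replicates give no spread between donors.

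Replication begins when the origin recognition complex, CDC6 and CDT1 load the MCM2 to MCM7 ring onto origins in G1, a step called licensing. CDC45 and GINS then turn the ring into the active helicase, polymerase alpha with primase lays down primers, and polymerases delta and epsilon extend them while held to DNA by the PCNA clamp, which the RFC complex loads. Most of these genes are transcribed as cells leave G1, through sites for E2F factors, and their transcripts are low in resting endothelium. In bulk RNA, fewer cells in S phase and less RNA per cell cannot be told apart. By separate assays the study reported fewer siELMO1 cells in S phase, and less labelling of new DNA, than for Mock and siNT. How far that share accounts for the RNA levels was not tested.

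Promoter sequence was examined because it is a feature the choice of genes did not use. RefSeq windows of 300 bases (build GRCh38.p14, 250 before and 50 after a start site) were matched by symbol for 44 of the 49 genes. GINS4, DSCC1, POLD3, MCM5 and MCM4 had no entry. The windows were searched on both strands for 4 words of the E2F type, TTTCGCGC, TTTGGCGC, TTTCCCGC and TTTGCCGC. At least 1 of the words was present in 25 of the 44 genes (56.8%), against 3.99% of 27305 genes with windows of this length. Counted by window, the shares were 44.8% of 58 windows and 3.31% of 35116. The word CCAAT, which NF-Y binds, was present for 63.6% of the 44 genes and 39.7% of all genes. The word TTTGAA, the core of the CHR element of genes of G2 and mitosis, was present for 6.82% and 18.2%. The interferon-type ISRE motif was found for none of the 44 genes and for 4.38% of all genes. All genes here means all with such windows, not only those that passed the filter on low counts, as the 49 did. Shares among the genes that passed were not computed, so part of each difference may lie in this choice.

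The windows below are shown because they hold the E2F words, in capitals, that the replication genes share. For each role, the gene with the most words in a window is given, or the one most lowered by siELMO1 where genes tied, and MCM2 is added for its run of 12 bases that reads as an E2F word on both strands. In MCM6 and TIPIN, too, words on opposite strands overlap. All are written 5′ to 3′ on the strand of the gene, and each letter match is a description and not a mapped site. CDT1 is at chr16:88803734-88803781 (plus strand), MCM2 at chr3:127598393-127598444 (plus), MCM6 at chr2:135876502-135876615 (minus), POLA2 at chr11:65261889-65261936 (plus), RFC3 at chr13:33818074-33818121 (plus), TYMS at chr18:657594-657641 (plus), UHRF1 at chr19:4909467-4909514 (plus) and TIPIN at chr15:66356720-66356771 (minus).
CDT1: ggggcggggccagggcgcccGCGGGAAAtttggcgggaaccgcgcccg
MCM2: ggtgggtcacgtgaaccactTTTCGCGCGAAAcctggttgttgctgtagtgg
MCM6: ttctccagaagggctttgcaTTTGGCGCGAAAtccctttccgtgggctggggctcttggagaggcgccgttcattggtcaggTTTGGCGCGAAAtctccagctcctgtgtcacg
POLA2: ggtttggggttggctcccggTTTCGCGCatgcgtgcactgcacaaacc
RFC3: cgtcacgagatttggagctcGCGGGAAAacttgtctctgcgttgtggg
TYMS: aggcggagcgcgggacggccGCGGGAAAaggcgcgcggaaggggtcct
UHRF1: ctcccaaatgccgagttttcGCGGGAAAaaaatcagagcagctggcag
TIPIN: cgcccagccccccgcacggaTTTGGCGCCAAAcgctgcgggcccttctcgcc

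Genes with and without a word overlapped in how far they moved, and the difference between them was not tested. For siELMO1 against siNT at 0 h, the 25 genes with a word had a median of -1.25 on the log2 scale (range -2.00 to -0.32), and the 19 without one a median of -1.65 (range -2.52 to -0.10). MCM10, TK1, RRM2 and ASF1B, each among the genes most lowered in its role, had none of the 4 words in their windows. RFC3 (-2.00), MCM8 (-1.94) and CLSPN (-1.81) were strongly lowered too, and each had 1.

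Library totals ran from 40374756 to 73850946 estimated counts, and no pair of libraries was identical. ELMO1 was at 10 to 22 counts in the 6 siELMO1 libraries and at 80 to 237 in the other 12, so the labels of the knockdown held. Endothelial markers were all present (9 of 9 at 1 CPM or more). Leukocyte markers were near 0 apart from LYZ (group means of 1.99 to 5.72 CPM), with a summed level of 1.58 to 7.5 CPM. Fibroblast markers were near 0 and summed to 0.181 to 1.02 CPM. Epithelial markers (2 of 6 at 1 CPM or more) summed to 484 to 1090 CPM, and 8 genes of the poly(I:C) response to 92.3 to 146 CPM at 0 h and 3050 to 6610 CPM at 24 h. The 9 endothelial markers summed to 2520 to 3070 CPM in siELMO1 libraries and 1430 to 2050 CPM in the others. Each marker but PECAM1 had a higher mean in siELMO1 than in siNT at both times. PECAM1 was at 224 against 314 CPM at 0 h and 188 against 230 CPM at 24 h. Against Mock, each mean was higher in siELMO1 at both times, except TEK at 0 h (104 against 107 CPM). Mitochondrially encoded genes took 1.86, 4.02 and 3.95% of counts in the siELMO1 libraries at 0 h and 1.31 to 2.13% in the Mock and siNT libraries at 0 h. The part of the endothelial and mitochondrial differences in the results was not tested. Levels in CPM are counts scaled to a common library size with TMM factors, and a gene was called when its Benjamini-Hochberg adjusted p over all 15167 genes was under 0.05 in edgeR's quasi-likelihood test.

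The level per length, given as TPM, spanned a wide range among the members. In Mock cells at 0 h PCNA was highest at 827 ± 6.71 TPM (SD, n = 3), followed by the thymidylate synthase TYMS at 325 and the ribonucleotide reductase subunit RRM2 at 292. DSCC1, which helps load PCNA for cohesion, was lowest at 12.1 TPM. Among the ring subunits, MCM7 was at 229 and MCM5 at 78.6 TPM.

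Before poly(I:C), siELMO1 cells had lower transcript levels of nearly all of these 49 genes, which were chosen with earlier results of these data known. Against siNT, 48 of 49 genes were lower and none was higher, with a median log2 fold change of -1.47 (range -2.54 to -0.10), and 38 were lowered more than 2-fold. Of all genes tested, 31.3% were called lower in this comparison, with a median of 0.001. Against Mock, 49 of 49 were lower (median -1.67, 45 more than 2-fold), where 22.4% of all genes were called lower. The median gene was at 35.8% of its siNT level and 31.4% of its Mock level. The only gene not called against siNT was RFC1. From these same libraries the study had reported lower expression of cell cycle and DNA replication genes in siELMO1, naming ASF1B and DSCC1 among them. The direction of the 49 genes at 0 h is therefore not independent evidence. An alternative chosen after seeing the data left out siELMO1 0 h replicates 2 and 3, the libraries of higher mitochondrial share. Only replicate 1 then stood for this group, with no spread of its own. It held a summed level of 1635 CPM of the 49 genes, where the libraries left out held 1559 and 1634 CPM.

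After 24 h with poly(I:C) these genes were higher in siELMO1 cells. All 49 were higher at 24 h than at 0 h, with a median log2 fold change of 0.86 (range 0.12 to 2.10), and 20 rose more than 2-fold. Of all genes tested, 28.0% were called higher and the median was 0. The summed level of the 49 genes was 1635, 1559 and 1634 CPM in siELMO1 at 0 h and 3008, 2911 and 2780 CPM at 24 h, with no overlap. The same sum in siNT ran from 3871 to 3934 CPM at 0 h and from 2967 to 3263 CPM at 24 h, and in Mock from 4799 to 4890 and from 3987 to 4263 CPM. At 24 h the siELMO1 sums overlapped those of siNT at 24 h only in part and stayed below every Mock library. For 3 genes with a small rise, SLBP, MCM6 and POLE2, the call was lost under at least 1 alternative, and the other 46 were called higher under all 15.

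**Figure D1:**
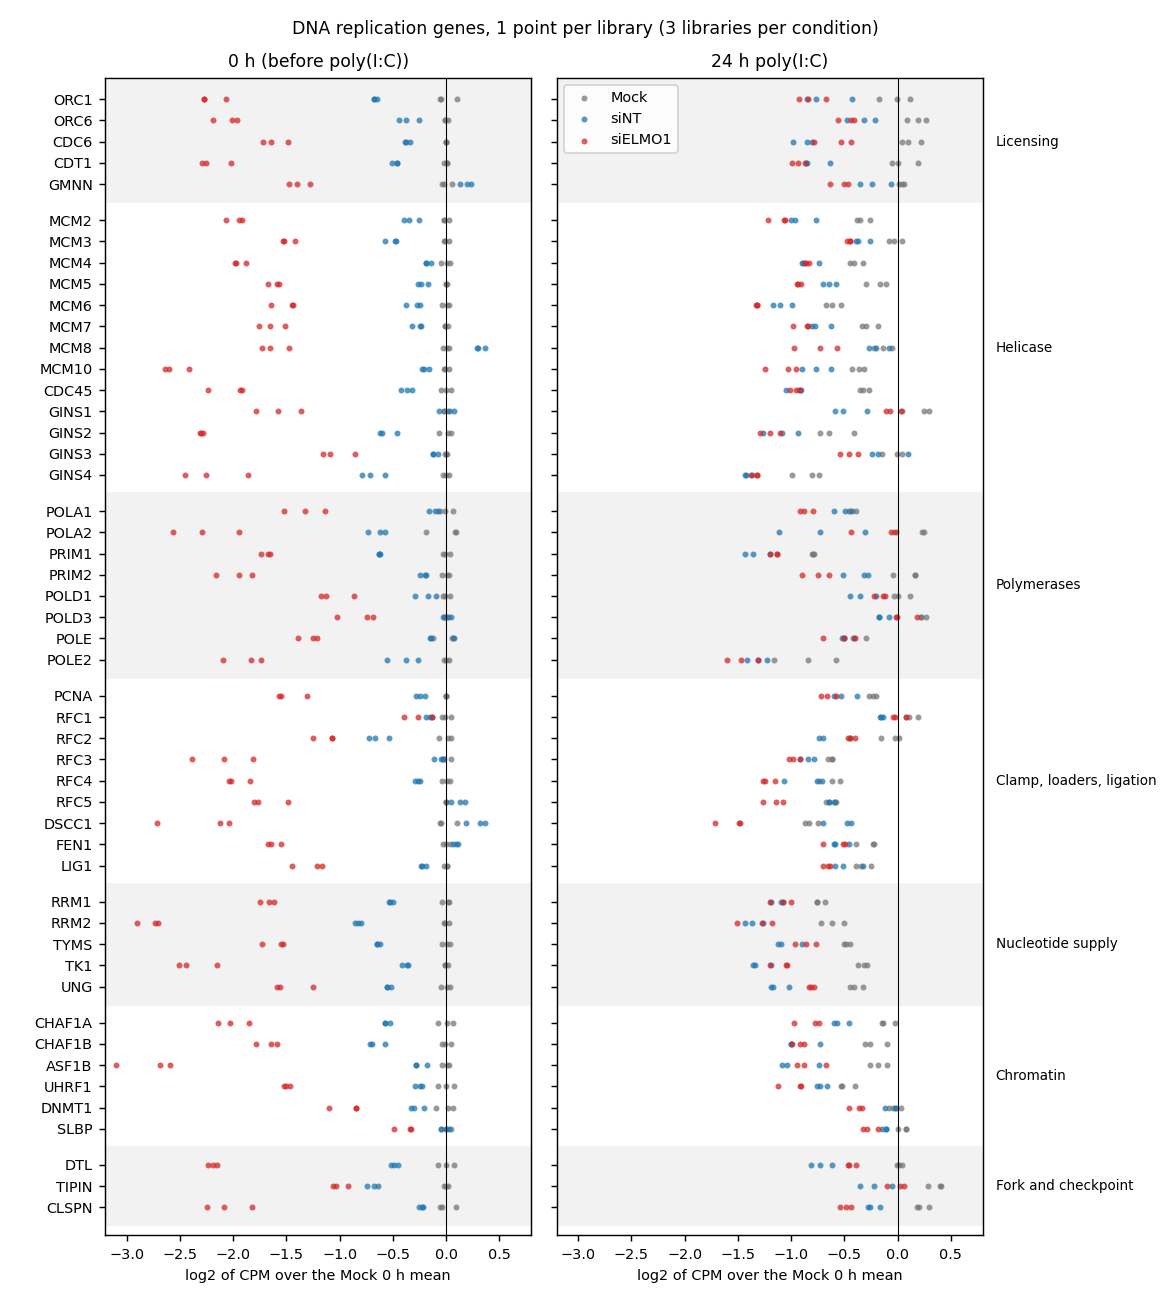
Level of each of the 49 genes in each library, as the log2 of CPM over the mean of the Mock libraries at 0 h, at 0 h (left) and after 24 h of poly(I:C) (right). Points are single libraries, with Mock in grey, siNT in blue and siELMO1 in red. At 0 h the siELMO1 points lie left of the siNT points for 48 of 49 genes, with overlap for RFC1. At 24 h they lie closer to siNT for most genes, though for 28 of 49 the libraries of both do not overlap.

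Licensing genes were lowered strongly and evenly. All 5 were lower in siELMO1 than in siNT at 0 h (median log2 fold change -1.57), and all 5 rose by 24 h, 4 of them more than 2-fold (median 1.24). CDT1, which loads the MCM ring with CDC6, was at 41.1, 41.2 and 39.8 CPM in siNT and 14, 11.9 and 11.6 CPM in siELMO1 at 0 h. These groups were far apart, and the log2 difference, -1.70 ± 0.08 (SE, adjusted p = 5.1e-12), was the largest of this role. By 24 h siELMO1 libraries held 28.5, 31 and 29.7 CPM of CDT1, against 31.2, 31.5 and 36.6 CPM in siNT, a difference that was not called. CDC6 was the least lowered, from 65.2, 63.1 and 63.4 CPM in siNT to 24.9, 29.3 and 26.3 CPM (-1.25 ± 0.08, adjusted p = 2.6e-10). Its siELMO1 level at 24 h, 60.6, 56.8 and 47.7 CPM, lay above all 3 siNT libraries at 24 h (41.7, 45.7 and 47.1 CPM). ORC6, a subunit of the origin recognition complex, rose most in this role, from 10.6, 9.35 and 10.9 to 32.1, 31.4 and 28.8 CPM (log2 fold change 1.57 ± 0.08, adjusted p = 1.5e-11). GMNN, which encodes the CDT1 inhibitor geminin, rose least, from 8.59, 9.35 and 8.18 to 16.4, 16 and 14.6 CPM (0.85 ± 0.08, adjusted p = 3.1e-08). It remained at 60.8% of its siNT level at 0 h, whereas ORC6 was at 92.6%.

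All 13 helicase genes were lower at 0 h (median -1.57, 11 more than 2-fold), and all 13 rose by 24 h (median 0.87, 6 more than 2-fold). MCM10, which joins the helicase to polymerase alpha, fell most, from 49, 48.4 and 50.4 CPM in siNT to 9.3, 9.05 and 10.6 CPM in siELMO1. The difference was -2.35 ± 0.08 (adjusted p = 1.6e-13), and no siELMO1 library came near a siNT library. At 24 h MCM10 was at 29.1, 27.7 and 23.8 CPM, below the 30.4, 33.1 and 36.7 CPM of siNT. GINS3 was the least lowered, at 38.9, 40.3 and 39.1 CPM in siNT and 23.5, 19.1 and 20 CPM in siELMO1 (-0.91 ± 0.09, adjusted p = 5.6e-08). GINS1, another subunit of the same 4-part complex, rose most, from 30.3, 22.6 and 26.2 to 79.6, 74.4 and 72.2 CPM (1.51 ± 0.10, adjusted p = 3.8e-10). At 24 h the GINS1 libraries of siELMO1 all lay above those of siNT, at 54.6, 51.8 and 64 CPM. MCM6 rose least, from 50.3, 43.5 and 50.1 to 54.6, 54.7 and 54.2 CPM (0.18 ± 0.06, adjusted p = 0.017). Its rise was not called with library totals (adjusted p = 0.13) or upper-quartile factors (adjusted p = 0.099), only with the libraries compared (0.061), without siELMO1 0 h replicate 2 (0.11), or with siELMO1 0 h replicates 2 and 3 left out (0.25).

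Within the ring, the subunits did not recover in step. MCM4, at 29.3% of siNT at 0 h, was at 98.8% of siNT at 24 h, and MCM3 went from 50.5% to 92.5%. MCM2 was at 86.7%, MCM5 at 82.1%, MCM6 at 84.8% and MCM7 at 89.6% of siNT at 24 h. Part of this closeness came from the siNT side, where MCM6 fell by 0.79 and MCM4 by 0.66 on the log2 scale between 0 h and 24 h while MCM3 rose by 0.16. MCM8, a related helicase of recombination and not of the ring, stayed at 67.6% of siNT at 24 h (log2 fold change -0.57 ± 0.08, adjusted p = 2.3e-05), the lowest of the 13.

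All 8 polymerase and primase genes were lower at 0 h (median -1.21) and higher at 24 h (median 0.81). PRIM2, the large primase subunit, was at 37.7, 38.8 and 39.1 CPM in siNT and 12.6, 10 and 11.6 CPM in siELMO1 at 0 h (-1.75 ± 0.09, adjusted p = 1.1e-11). At 24 h it was at 28.5, 24 and 26.5 CPM, below every siNT library (35.8, 31.3 and 36.9 CPM). POLD3, a subunit of polymerase delta, was the least lowered, from 40.4, 40.2 and 42 CPM to 20, 25.3 and 24.4 CPM (-0.82 ± 0.07, adjusted p = 2.4e-08). It returned to 40.6, 40.5 and 46.2 CPM, which is 104% of its siNT level at 0 h. POLA2, the regulatory subunit of polymerase alpha, had the largest rise of all 49 genes, from 6.77, 8.18 and 10.4 to 29.6, 39.7 and 38.4 CPM (2.10 ± 0.18, adjusted p = 2.5e-08). Its standard error was the largest too, with siNT libraries at 24 h spread from 18.5 to 32.5 CPM, and another protein-coding locus (ENSG00000285816) overlaps it on the same strand. POLE2, a subunit of polymerase epsilon, rose least, from 6.14, 5.74 and 4.77 to 6.71, 7.37 and 8.24 CPM (0.42 ± 0.13, adjusted p = 0.012). Without siELMO1 0 h replicate 3 its adjusted p was 0.068, without siELMO1 24 h replicate 3 it was 0.058, and with siELMO1 0 h replicates 2 and 3 left out it was 0.24.

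The genes of the clamp, its loaders and strand joining had the widest range of log2 fold changes against siNT at 0 h of the 7 roles, from -2.54 to -0.10. Of the 9, 8 were lower at 0 h (median -1.70) and all 9 rose by 24 h (median 0.69). PCNA, the sliding clamp, went from 356, 378 and 366 CPM in siNT to 175, 148 and 146 CPM in siELMO1 at 0 h, and then to 290, 263 and 273 CPM at 24 h. DSCC1 was the most lowered of all 49 genes, at 13.8, 13.4 and 12.2 CPM in siNT and 2.62, 1.63 and 2.47 CPM in siELMO1 (-2.54 ± 0.14, adjusted p = 4.0e-11). It reached only 3.27, 3.82 and 3.85 CPM at 24 h and was then the only gene still more than 2-fold below siNT (-1.03 ± 0.13, adjusted p = 5.8e-06). RFC3, a small subunit of the clamp loader, had the largest rise of this role, from 8.24, 5.57 and 6.86 to 15.4, 14.7 and 14.3 CPM (1.09 ± 0.09, adjusted p = 2.2e-08). RFC1, the large subunit, was at 78.5, 75.6 and 77.5 CPM in siNT and 65.4, 72 and 78.7 CPM in siELMO1 at 0 h. These values overlapped, and the log2 fold change was -0.10 ± 0.06 (adjusted p = 0.13). Without siELMO1 0 h replicate 3 RFC1 was called lower, at -0.17 (adjusted p = 0.013). FEN1 and LIG1, which trim and join Okazaki fragments, were at 30.6% and 48.1% of siNT at 0 h and at 98.6% and 87.6% at 24 h.

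All 5 genes of nucleotide supply and uracil repair were lower at 0 h (median -1.16), and none was lower than siNT at 24 h, when 3 were higher and 2 were not called. Of all genes tested, 26.5% were called lower and 26.0% higher at 24 h. Of the 3 higher genes, TYMS, TK1 and UNG, only UNG was called under all 14 alternatives. TK1, the thymidine kinase of the salvage pathway, was at 103, 107 and 106 CPM in siNT and 30.9, 24.1 and 25.2 CPM in siELMO1 at 0 h (-1.97 ± 0.08, adjusted p = 4.5e-13). At 24 h it was at 66.4, 66.6 and 59.7 CPM in siELMO1 and 53.5, 54 and 60.2 CPM in siNT, with overlap. RRM2, whose product sets much of the activity of ribonucleotide reductase, rose most, from 58.3, 50.8 and 57.4 to 168, 157 and 134 CPM (1.46 ± 0.08, adjusted p = 2.7e-11). This was 103% of siNT and 61.3% of Mock at 24 h, when siNT itself was at 59.8% of Mock. RRM1, its partner subunit, rose least, from 66.5, 62.5 and 68.3 to 105, 99.5 and 91.3 CPM (0.58 ± 0.05, adjusted p = 2.8e-08). UNG, the uracil DNA glycosylase, was the least lowered, at 61.8, 61.7 and 63.1 CPM in siNT and 38, 30.1 and 30.8 CPM in siELMO1 (-0.91 ± 0.07, adjusted p = 4.8e-09).

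The 6 genes of replicated chromatin covered a wide range of log2 fold changes at 0 h, from -2.52 to -0.38. All 6 were lower at 0 h (median -1.13) and higher at 24 h (median 0.65). ASF1B, a histone chaperone of dividing cells, was at 50.3, 50.3 and 53.9 CPM in siNT and 10.1, 7.12 and 9.47 CPM in siELMO1 at 0 h (-2.52 ± 0.11, adjusted p = 2.3e-12). It rose to 38.2, 33.3 and 31.7 CPM by 24 h (1.94 ± 0.11, adjusted p = 9.4e-11), level with siNT at 29.7, 28.8 and 36.6 CPM. SLBP, which binds the stem-loop of histone mRNAs, was the least lowered, from 93.5, 96.8 and 98.5 CPM to 69.1, 76.6 and 76.9 CPM (-0.38 ± 0.05, adjusted p = 3.5e-06). It had the smallest rise of all 49 genes, to 85.1, 77.2 and 79.6 CPM (0.12 ± 0.05, adjusted p = 0.049), which was not called under 7 alternatives, with adjusted p from 0.058 to 0.28 over them. UHRF1 and DNMT1, which copy DNA methylation onto the new strand, were at 42.3% and 63.6% of siNT at 0 h and at 83.5% and 79.3% at 24 h.

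Of the 3 genes of the fork and its checkpoint, CLSPN was the most lowered, at 98.2, 97.9 and 96 CPM in siNT and 24.1, 27 and 32.4 CPM in siELMO1 at 0 h (-1.81 ± 0.08, adjusted p = 1.9e-12). CLSPN encodes claspin, which passes the ATR signal to CHK1. DTL, a substrate receptor for the degradation of CDT1, rose most, from 16.1, 16.7 and 17.1 to 57.8, 55.3 and 55 CPM (1.75 ± 0.06, adjusted p = 2.2e-14). At 24 h it was above all siNT libraries (45.9, 43.3 and 49.7 CPM). TIPIN, of the fork protection complex, was the least lowered, at 15.3, 14.6 and 15.7 CPM in siNT and 11.9, 11.7 and 12.9 CPM in siELMO1 (-0.32 ± 0.07, adjusted p = 9.0e-04). It rose to 25.4, 24.8 and 22.8 CPM, 160% of its siNT level at 0 h and the highest such share of the 49.

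The distance to the controls was therefore much smaller at 24 h. In siELMO1 against siNT at 24 h, 19 genes were lower, 12 were higher and 18 were not called, with a median log2 fold change of -0.12. Of all genes tested, 26.5% were called lower and 26.0% higher, so the share of members called higher lay near the background. The 12 higher genes were CDC6, GINS1, POLA2, PRIM1, POLD3, RFC1, RFC2, TYMS, TK1, UNG, DTL and TIPIN. Of these, CDC6, GINS1, UNG and DTL were called higher under all 14 alternatives, and the count was 5 when libraries were scaled by their totals alone, 4 without siNT 24 h replicate 1, 6 without siNT 24 h replicate 2, and 7 without siELMO1 24 h replicate 1 or 2. Of the 19 lower genes, 15 were called lower under all of them. Against Mock at 24 h, 45 of 49 were still lower and none higher (median -0.50), where 22.0% of all genes were called lower. The 4 not called were POLA2, POLD1, POLE and RFC1.

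**Figure D2:**
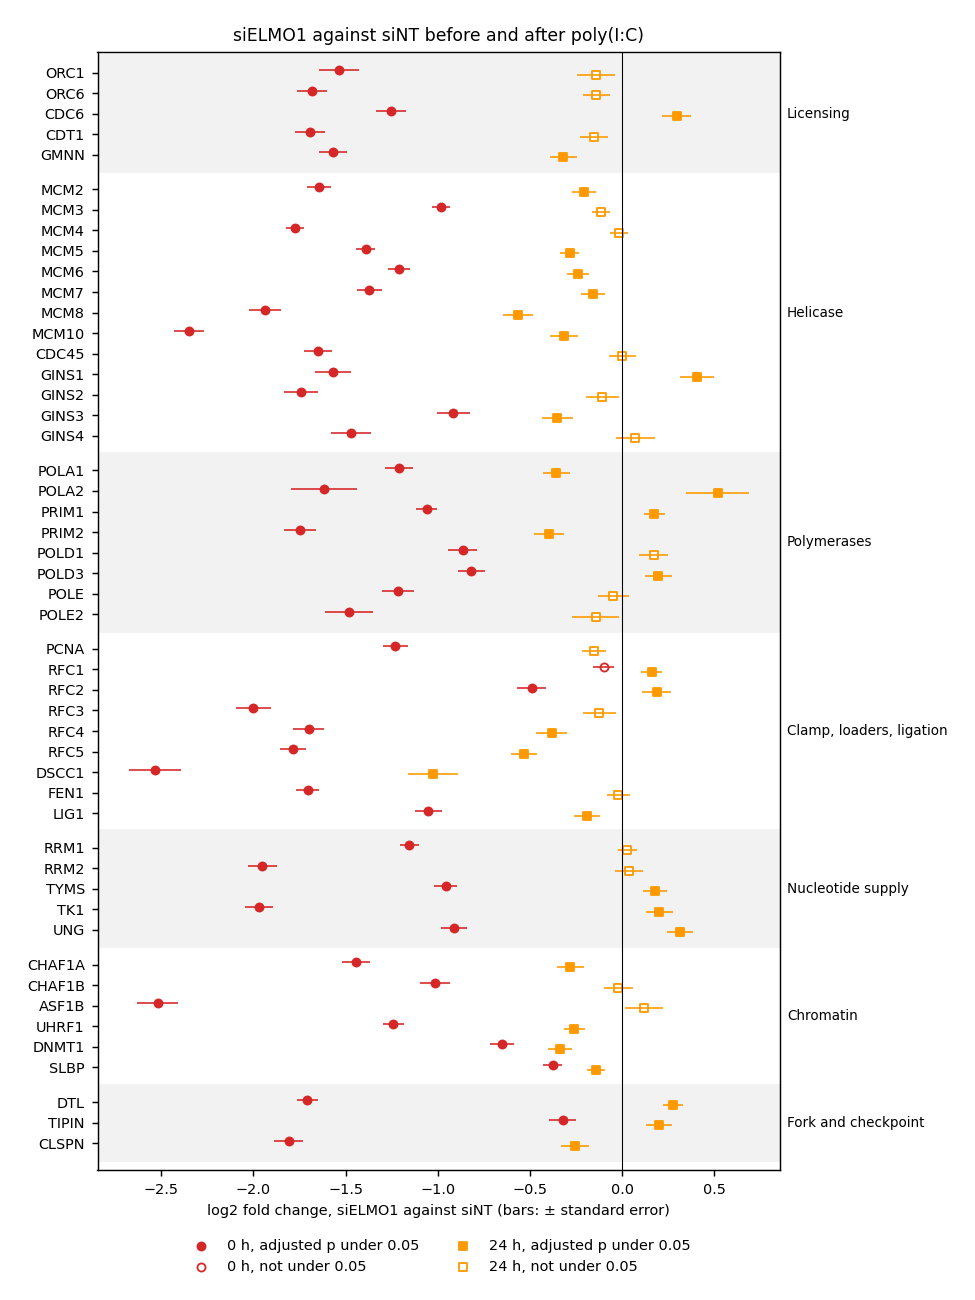
Log2 fold change of siELMO1 against siNT for each of the 49 genes at 0 h (red circles) and at 24 h (orange squares), with bars of 1 standard error and open symbols where the adjusted p was not under 0.05. The 0 h points have a median of -1.47 and the 24 h points a median of -0.12, and DSCC1 is the leftmost at both times.

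Both sides moved to close this distance, and the part of cell death in the siNT change was not tested. Measured against siNT at 0 h, before its own decline, the median gene in siELMO1 went from 35.8% at 0 h to 71.2% at 24 h. Measured against siNT at 24 h it reached 91.7%, and against Mock at 24 h 70.7% (range 50.6 to 91.8%). Only 8 of the 49 genes reached or passed the siNT mean of 0 h, 18 that of siNT at 24 h, and none that of Mock at 24 h. The rise in siELMO1 was larger than any fall in siNT for 43 of 49 genes, a count that includes genes that did not fall in siNT.

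In the controls the same 24 h mostly lowered these genes. In siNT 34 of 49 fell and 3 rose (median -0.42), where 25.2% of all genes fell and 28.6% rose. In Mock 27 fell and 4 rose (median -0.23), where 29.6% of all genes fell and 30.7% rose. The primase subunit PRIM1, for example, fell from 36.8, 36.6 and 36.4 to 20.9, 22 and 24.6 CPM in siNT and from 58.1, 55.3 and 56.1 to 32.5, 32.3 and 32.7 CPM in Mock. The log2 fold changes were -0.70 ± 0.06 and -0.80 ± 0.05. NACA, among other genes, overlaps PRIM1 on the same strand. The exceptions that rose were MCM3, DNMT1 and TIPIN in siNT, and ORC6, POLD3, TIPIN and CLSPN in Mock. TIPIN rose in all 3 conditions, by 0.48 ± 0.07 in siNT and 0.37 ± 0.07 in Mock, and it was called under every alternative in both. In Mock the call of ORC6 was lost in 11 of 14 alternatives, and the count of rising genes was 1 with library totals, 2 with upper-quartile factors, 1 without Mock 0 h replicate 1 and 2 without Mock 0 h replicate 3 or Mock 24 h replicate 2.

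The difference between the responses was itself tested as an interaction with time. All 49 genes changed more positively in siELMO1 than in siNT (median 1.25, 37 more than 2-fold), where 16.7% of all genes were called in this direction. Against Mock, 47 did (median 1.19), where 13.8% of all genes were called, and RFC1 and SLBP were not called. ASF1B had the largest interaction against siNT (2.64 ± 0.15, adjusted p = 6.1e-10), followed by TK1 (2.17 ± 0.10, adjusted p = 1.1e-10). SLBP had the smallest (0.23 ± 0.07, adjusted p = 0.015). Over 21 alternatives 48 of the 49 were called in each, RFC1 being the exception, and against Mock all 47 were. Against Mock, ASF1B (2.12 ± 0.15) and RRM2 (2.07 ± 0.11) led. Because siELMO1 started far lower at 0 h, each interaction holds the difference at 0 h as well as that at 24 h.

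**Figure D3:**
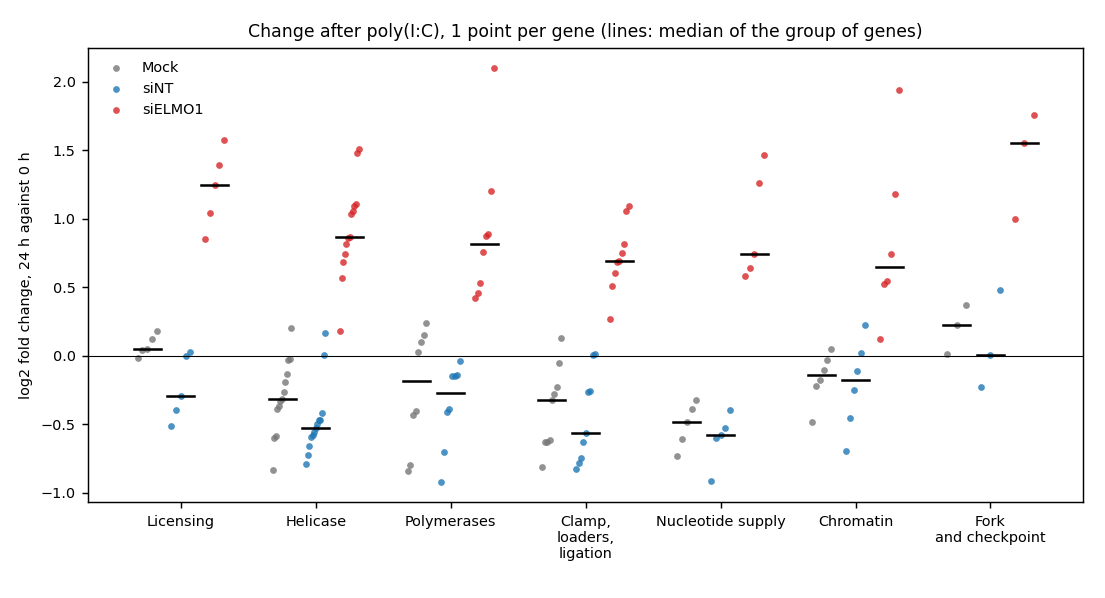
Log2 fold change between 0 h and 24 h for each gene, by role, in Mock (grey), siNT (blue) and siELMO1 (red), with a line at the median of each set. All red points lie above 0, and the blue medians lie below 0 in every role but the fork and checkpoint, where the median is 0.0019.

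The control siRNA alone also moved the machinery. At 0 h, 35 of 49 genes were lower in siNT than in Mock and 2 were higher, GMNN and MCM8 (median -0.27), where 24.0% of all genes were called lower and 27.6% higher. RRM2 showed the largest difference, at 387, 379 and 376 CPM in Mock and 219, 210 and 215 CPM in siNT (-0.83 ± 0.07, adjusted p = 6.1e-08). MCM8 went the other way, from 76.9, 74.9 and 77.9 to 98.5, 94.5 and 93.5 CPM (0.32 ± 0.08, adjusted p = 0.0035). The call of GMNN was lost under 10 of 14 alternatives, which left MCM8 alone. At 24 h, 40 genes were lower in siNT and none higher (median -0.46), where 24.9% of all genes were called lower. Mock and siNT libraries of the same replicate number at 24 h deviated from their group means alike (r of 0.251 to 0.335), though the labels state no pairing. With the replicate block in edgeR's test 40 genes were again lower, with RFC3 gained (adjusted p = 0.042) and RFC4 lost (adjusted p = 0.058). The 24 h change in siNT was more negative than in Mock for 14 genes and more positive for 2, MCM3 and DNMT1, where 16.0% and 14.9% of all genes were called. Neither MCM3 (adjusted p = 0.047) nor DNMT1 (adjusted p = 0.04) was called under all 20 alternatives, which gave 0 to 3 genes with a more positive change. Of the 14, 8 were called under all 20 alternatives, with GINS1 (-0.67 ± 0.13, adjusted p = 7.7e-04) and CDC6 (-0.63 ± 0.11, adjusted p = 2.7e-04) the largest.

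Since subunits were not lowered alike, the make-up of the transcript pool of each complex shifted. RFC1 held 17.4 ± 0.165% of the summed TPM of the 5 clamp loader genes in Mock and 18.0 ± 0.868% in siNT at 0 h (SD, n = 3), but 34.5 ± 3.08% in siELMO1. RFC3 went the other way, from 13.7 ± 0.391% in siNT to 6.89 ± 1.16% in siELMO1. At 24 h the shares in siELMO1 were 28.0 ± 0.391% for RFC1 and 10.1 ± 0.158% for RFC3. At the same time RFC3 was at 10.5 ± 0.688% in siNT and 10.0 ± 0.313% in Mock, level with siELMO1. RFC1 was at 23.6 ± 1.11% in siNT and 23.5 ± 0.222% in Mock at 24 h, above its 0 h share in both and below that of siELMO1. In the GINS complex, GINS1 rose from 35.9 ± 2.25% to 49.5 ± 0.745% of the pool in siELMO1 between 0 h and 24 h, while GINS3 went from 41.6 ± 0.943% to 29.6 ± 0.868%. The GINS1 share also rose in Mock, from 35.5 ± 0.0572% to 44.6 ± 2.36%, and in siNT it went from 42.5 ± 3.27% to 37.9 ± 0.92%. In the polymerase alpha complex POLA2 went from 11.0 ± 1.84% to 23.5 ± 3.38% in siELMO1, from 15.8 ± 1.87% to 21.0 ± 2.42% in Mock and from 13.4 ± 0.566% to 16.5 ± 3.82% in siNT. The share of MCM6 in the ring fell in all 3 conditions, from 12.8 ± 0.412% to 8.32 ± 0.201% in siELMO1, from 11.5 ± 0.288% to 8.84 ± 0.136% in siNT and from 11.6 ± 0.11% to 9.07 ± 0.185% in Mock. These shares are descriptions of 3 libraries each and were not tested.

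**Figure D4:**
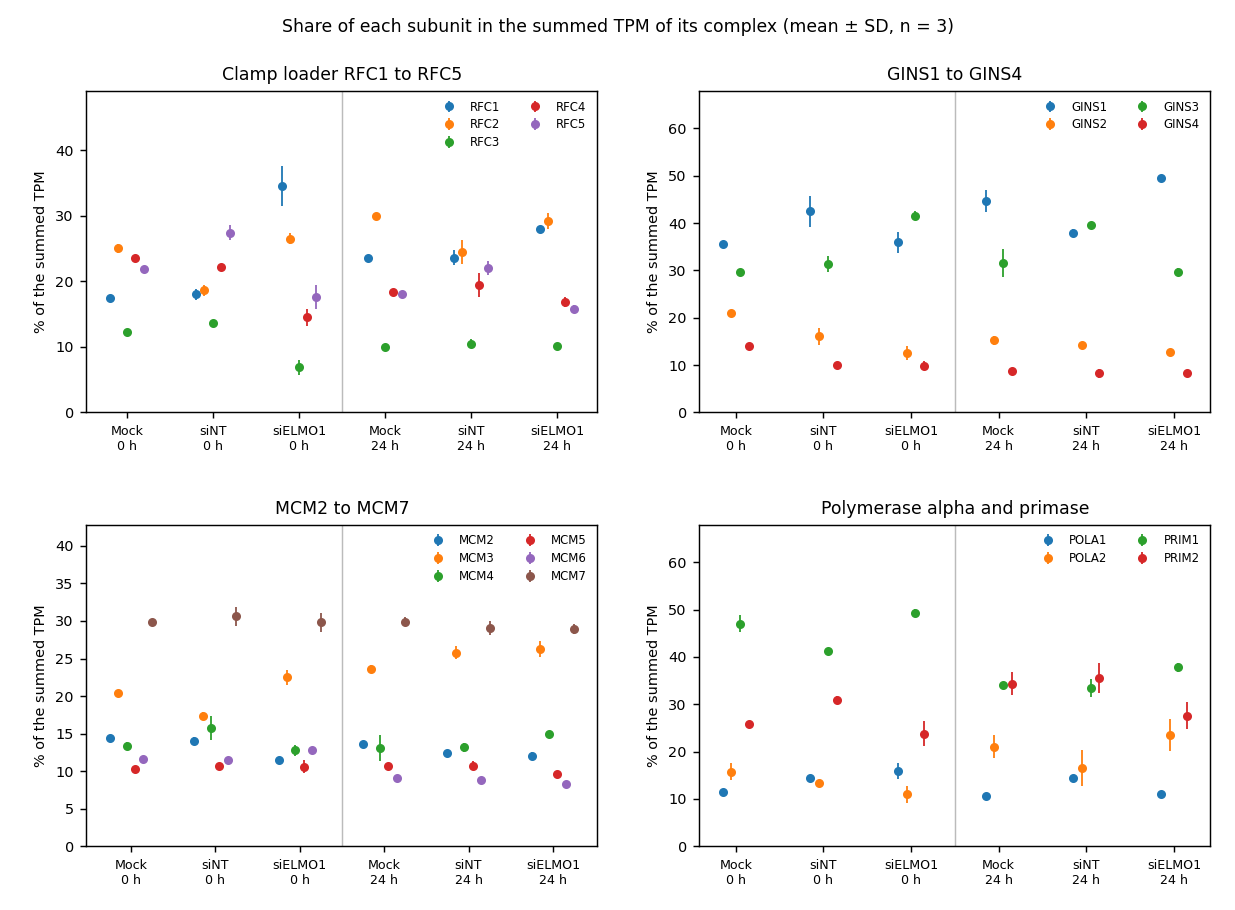
Share of each subunit in the summed TPM of its complex, as mean ± SD of 3 libraries, for the clamp loader, GINS, the MCM2 to MCM7 ring and polymerase alpha with primase. RFC1 is at 34.5% in siELMO1 at 0 h against 18.0% in siNT, and GINS1 is at 49.5% in siELMO1 at 24 h.

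UNG showed a difference between its transcripts. The gene lies at chr12:109097597-109126725 on the plus strand (GRCh38, GENCODE 44), and 2 starts give proteins with different first exons. UNG-201 starts upstream and codes for the form of 313 amino acids known to act in the nucleus, and UNG-202 starts downstream and codes for the form of 304 amino acids known to act in mitochondria. The E2F word of UNG lay in the window of the downstream start (chr12:109098089-109098136), printed here to show its place between both starts, and not in the window of the upstream one.
UNG: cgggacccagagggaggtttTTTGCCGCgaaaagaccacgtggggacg

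At 0 h, UNG-201 was at 69.8, 74.7 and 76.2 CPM in Mock, at 40.2, 37.1 and 48.9 CPM in siNT, and at 11.6, 13.2 and 7.7 CPM in siELMO1. UNG-202 was at 16.3, 15 and 14.7 CPM in Mock, at 7.92, 20.5 and 11.5 CPM in siNT, and at 18.3, 16.3 and 22.1 CPM in siELMO1. The upstream transcript was thus lower in every siELMO1 library than in any control library, while the downstream one overlapped siNT. UNG-201 took 30.4, 44 and 25% of the UNG counts in siELMO1 and 65.4, 60.2 and 77.6% in siNT, a difference of -34.6 points (two-sided exact permutation test, p = 0.1, the smallest that 3 against 3 libraries allow, adjusted p = 0.2 over 8 tests). After 24 h UNG-201 was at 34.7, 36.2 and 18.3 CPM in siELMO1, above every siELMO1 library of 0 h. UNG-202 then spread from 5.95 to 32.5 CPM, so no change of its share could be read. Transcript counts of overlapping exons are estimates, and ACACB overlaps UNG on the same strand.

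**Figure D5:**
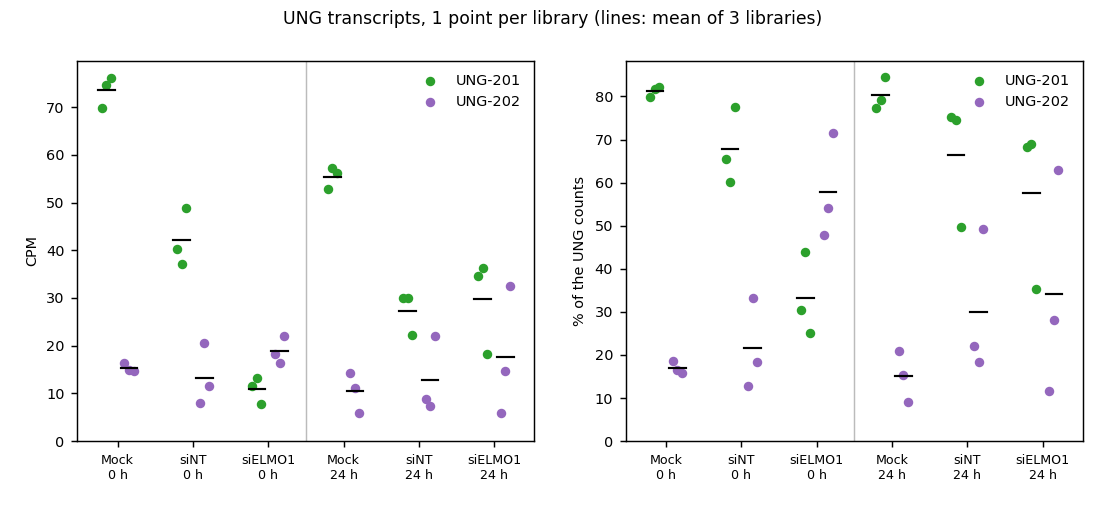
Level in CPM (left) and share of the UNG counts (right) of UNG-201 (green) and UNG-202 (purple), with 1 point per library and a line at the mean of 3 libraries. In siELMO1 at 0 h UNG-201 is at 7.7 to 13.2 CPM and UNG-202 at 16.3 to 22.1 CPM, the only group in which UNG-202 exceeds UNG-201 in every library.

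Other replication genes that are not members moved the same way but less evenly. Of a further 42 (41 tested), 33 were lower and 4 higher in siELMO1 than in siNT at 0 h (median -0.79). Of all genes tested, 31.3% were called lower there. Between 0 h and 24 h in siELMO1, 28 rose and 4 fell (median 0.35), where 28.0% of all genes rose. The shares of all genes called in the opposite directions were not computed, so the exceptions named next are descriptions only. The 4 higher at 0 h were POLD4, a small subunit of polymerase delta (log2 fold change 0.89 ± 0.09, adjusted p = 6.2e-08), the topoisomerase TOP1 (0.73 ± 0.07, adjusted p = 3.3e-08), the deoxycytidylate deaminase DCTD (0.52 ± 0.06, adjusted p = 2.7e-07) and the histone chaperone RBBP4 (0.17 ± 0.05, adjusted p = 0.014). POLD4 and TOP1 then fell with time in siELMO1, by 0.43 and 0.22 on the log2 scale, as did ORC5 (0.28) and ASF1A (0.49), the paralog of ASF1B. SAMHD1, a dNTP hydrolase induced by interferon, rose in all 3 conditions, by 2.12 ± 0.09 in siNT, 2.83 ± 0.09 in Mock and 3.76 ± 0.10 in siELMO1. It thus rose against most of its list in the controls. There 24 of 41 genes fell in siNT and 21 in Mock, where 25.2% and 29.6% of all genes fell.

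Mitotic genes, a list of 25 that includes CDK1, PLK1 and MKI67, gave a further point of comparison. The study named these 3 as lower in siELMO1 from the same libraries, and the list was chosen with earlier results known. Its direction at 0 h is therefore not independent evidence. All 25 were lower in siELMO1 than in siNT at 0 h (median -1.84), where 31.3% of all genes were called lower. By 24 h 24 of them rose (median 0.81), where 28.0% of all genes rose, while NUSAP1, at an adjusted p of 0.05, was not called. In siNT 24 of the 25 fell over the 24 h with a median of -1.02, where 25.2% of all genes fell, and 13 fell more than 2-fold. The 49 replication genes had a median of -0.42 there, and none fell more than 2-fold. The difference between both lists was not tested.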

How the data were processed

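RNA of 18 EA.hy926 libraries (6 groups of 3) was sequenced as stranded, paired-end mRNA libraries. The authors aligned untrimmed reads with STAR to GRCh38, assembled transcripts of GENCODE 44 with StringTie and deposited estimated counts per gene and transcript as whole numbers. Tool versions, the read length set when coverage was turned into counts and the use of strand in counting are not given in the sources used here. Library totals ran from 40374756 to 73850946 counts, and p-values measure the spread between these libraries of 1 line.

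Following the study's filter, genes totalling 100 counts or more and reaching 1 CPM in any library were kept (15167 of 62754), scaled by TMM and fitted over all 18 libraries with edgeR 4.0.16 (R 4.3.3), using the quasi-likelihood test, Benjamini-Hochberg adjustment over all genes and a threshold of 0.05. The biological coefficient of variation was 12.2%. Alternatives used limma 3.58.1, DESeq2 1.42.0, other scalings and filters, a replicate block and each replicate left out. TPM was computed from the transcript counts and annotated lengths. The scripts were tested on simulated data. The members and lists were chosen with earlier results of these data known. Named genes were, in each role, the most and least lowered at 0 h against siNT and those with the largest and smallest rise in siELMO1. Other genes were named after their values were seen.

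Pairing by replicate number was checked by correlating deviations from group means over 9640 genes. Of 15 pairs of groups, every r exceeded 0.1 for 2, of which only Mock and siNT at 24 h (0.251 to 0.335) form a comparison of the design. The other was siELMO1 at 0 h with siNT at 24 h (0.119 to 0.218). Any pairing is thus read from the data and not from the labels, and it was not tested.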

Additional observations from a re-analysis of the deposited data

Results flagged for a closer look

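The change over 24 h differed between conditions by a test of the interaction itself. It was more positive in siELMO1 than in siNT for 49 members and than in Mock for 47, where 16.7% and 13.8% of all genes were called. Against siNT it was largest for ASF1B (2.64 on the log2 scale) and TK1 (2.17), and against Mock for ASF1B (2.12) and RRM2 (2.07).

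Between both controls the change was more negative in siNT for 14 members, with GINS1 (-0.666) and CDC6 (-0.631) the largest, and more positive for 2. Of all genes tested, 16.0% and 14.9% were called in these directions. Under all 20 alternatives 8 of the 14 were called, and 0 of the 2.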

How the results depend on the processing

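No member changed direction past the threshold under any alternative. Of 9359 values for single genes under alternatives, 9047 kept their side of the threshold, 74 gained a call and 238 lost one. With library totals, 5 members were higher in siELMO1 than siNT at 24 h, 1 was higher at 24 h in Mock, 1 was higher in siNT than Mock at 0 h, and 8 had a more negative change in siNT than Mock. This scaling moved the median of all genes by -0.121 for Mock over time. Upper-quartile factors gave 2 higher at 24 h in Mock and 1 higher in siNT than Mock at 0 h. Without a filter, 1 was higher in siNT than Mock at 0 h, and 9 and 0 members differed in change between siNT and Mock; filterByExpr gave 1 and, for the more positive change, 0. Leaving out 1 replicate gave 4 to 11 members higher in siELMO1 than siNT at 24 h, 1 to 5 higher at 24 h in Mock, 1 to 2 higher in siNT than Mock at 0 h, and 8 to 16 with a more negative and 0 to 2 with a more positive change in siNT than Mock. The cause was not tested.

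With the replicate block, 1 member had a more positive change in siNT than Mock. The block also ended the calls of MCM7 in siELMO1 against siNT at 24 h (adjusted p = 0.054), SLBP over time in siELMO1 (0.058) and ORC6 over time in Mock (0.054), and added POLD1 in siELMO1 at 24 h against siNT (0.048) and Mock (0.037) and POLD1 (0.036) and ASF1B (0.047) in siNT against Mock at 0 h. MCM2 (0.056) and MCM3 (0.054) lost their interaction of siNT and Mock with time. Apart from RFC3 and RFC4, given in the report, it changed no other call of a member.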
